A study of Mus musculus with 32 samples.

Results

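Expression of 8 genes of lipoprotein uptake and intracellular cholesterol transport was followed in the developing mouse brain with and without a working Dhcr7 gene. The members were taken by symbol from the count tables and are Stard4, Npc1, Npc2, Lipa, Soat1, Vldlr, Lrp8 and Scarb1, 8 of the 55291 symbols counted. All 8 passed the filter on low counts in every comparison, with between 253 and 8876 counts per library. The brains came from C57BL/6J mice that were wild type (Dhcr7+/+, WT) or homozygous for a disrupted Dhcr7 (Dhcr7-/-, KO), a model of Smith-Lemli-Opitz syndrome according to the study's title. RNA of the whole brain was taken at 3 embryonic ages, which the labels write as E12.5, E14.5 and E16.5 for days of gestation, and at PND0, the day of birth. Each of the 8 groups has 4 libraries, 32 in all. Neither the exons removed from Dhcr7 nor the litter or sex of a brain is given in the labels, and nothing says how the 4 libraries of a group relate, so p-values measure the spread between these libraries.

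Cells take up lipoproteins through surface receptors and break down their cholesteryl esters in lysosomes with the acid lipase Lipa. The soluble protein Npc2 then passes the free cholesterol to the membrane protein Npc1, which exports it. In the cytosol Stard4 carries sterol between membranes, and Soat1 in the endoplasmic reticulum turns surplus cholesterol back into esters. Scarb1 takes up cholesteryl esters from high-density lipoprotein without internalising the particle, while Vldlr and Lrp8 bind lipoproteins that carry apolipoprotein E and are also the receptors of Reelin, the secreted protein that guides migrating neurons. Dhcr7 catalyses the last step of cholesterol synthesis, and the brain depends largely on its own synthesis because plasma lipoproteins hardly cross its barrier.

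Total counts ran from 13868087 to 28318857 per library. Dhcr7 itself lay between 58.6 and 102 CPM (counts-per-million, scaled by TMM library size) in the WT libraries and between 11.4 and 26.7 CPM in the KO libraries, and the genotypes were apart at every stage. Neuron markers (5 of 5) and radial glia markers (6 of 6) were above 1 CPM in every library. Of the 4 liver markers only Ttr, also a choroid plexus gene, was above 1 CPM in every library of any group. A ribosomal RNA gene took 5.639% of the counts of E12.5 KO replicate 1 and 3.754% of those of E16.5 WT replicate 1. Elsewhere it took 0.1907% to 2.785%. Several values that these high libraries enter are also given without them. At PND0 the share was 1.799% to 2.785% in WT and 1.157% to 2.088% in KO. E14.5 KO replicates 3 and 4 had 2.679% and 2.553%, against 0.869% to 1.174% in the other libraries of that stage.

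The genes lie on several chromosomes of the GRCm38 build, by the GENCODE M21 annotation. Stard4 covers positions 33199355 to 33213862 and Npc1 positions 12189692 to 12236400 of chromosome 18, both on the minus strand. Vldlr (27216484 to 27254231, plus strand) and Lipa (34492318 to 34527474, minus strand) share chromosome 19. Lrp8 is on chromosome 4 (107802261 to 107876840, plus strand), Scarb1 on chromosome 5 (125277087 to 125341094, minus strand), Npc2 on chromosome 12 (84754562 to 84773152, minus strand) and Soat1 on chromosome 1 (156424525 to 156474331, minus strand). Exons of Npc1 overlap the opposite-strand genes Rmc1 over 4.515% and Gm15956 over 0.795% of their length, and whether the counting used strand is not stated. No exon of the other 7 genes overlapped an exon of another gene.

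In WT brain, Lrp8 and Npc2 stood above the other 6 genes at every stage when counts were divided by exon length. At E12.5 Npc2 was the higher of the pair, with 27.4 ± 0.88 CPM per kilobase of exon (SD, n = 4) against 15.5 ± 4.27 for Lrp8. At PND0 the order had turned, with 29.5 ± 1.94 CPM per kilobase for Lrp8 and 11.9 ± 0.89 for Npc2, and the libraries of the pair did not overlap at either stage. Stard4 came next at E12.5 with 9.06 ± 0.77 CPM per kilobase, its highest library at 9.74 and the lowest Lrp8 library at 9.91. The other 5 genes lay between mean levels of 3.33 and 4.62 CPM per kilobase at E12.5, and neighbours in that order overlapped.

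At PND0 the order below Npc2 ran Vldlr (7.65 ± 0.51 CPM per kilobase), Scarb1 (5.99 ± 0.54), Stard4 (5.84 ± 0.87), Npc1 (5.08 ± 0.09), Lipa (3.54 ± 0.41) and Soat1 (2.76 ± 0.18). Scarb1 and Stard4 overlapped, as did Stard4 and Npc1, and the remaining neighbours were apart. With the longest annotated transcript as divisor, Scarb1 moved up to the place after Npc2 at PND0, at 16.47 ± 1.48 CPM per kilobase, and Vldlr lay below Npc1 (9.66 against 9.99).

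**Figure D1:**
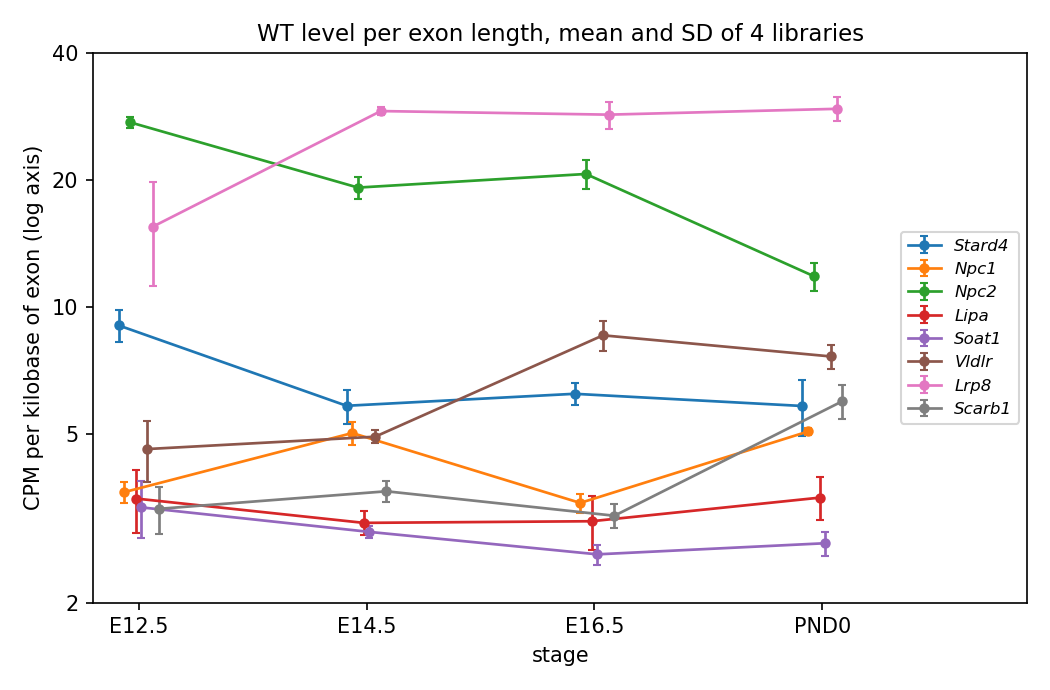
WT level of the 8 genes at each stage, in CPM per kilobase of exon on a log axis; points are means and bars SDs of 4 libraries. Lrp8 goes from 15.5 at E12.5 to 29.5 at PND0 and Npc2 from 27.4 to 11.9, while Lipa and Soat1 stay between 2.60 and 3.54.

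Between E12.5 and PND0, 6 of the 8 genes changed in WT brain (edgeR, adjusted p under 0.05). Lrp8, Scarb1, Vldlr and Npc1 rose, Npc2 and Stard4 fell, and Lipa and Soat1 did not pass. Across all 17681 genes tested, 70.9% passed in this comparison, so a count of 6 of 8 is near the background. The median log2 fold change was 0.27 over the 8 genes and -0.05 over all genes tested. Stage and any difference in handling between stages cannot be told apart here, and in bulk tissue neither can fewer cells of a type and less RNA per cell.

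The Reelin and apolipoprotein E receptors rose at different times. Lrp8 measured 104, 155, 208 and 186 CPM in the 4 WT libraries at E12.5 and 299 to 314 CPM at E14.5, so every later library was above every earlier one. Its log2 fold change over this step was 0.88 ± 0.18 (SE, adjusted p = 0.00296), and Lrp8 then measured 276 to 325 CPM at E16.5 and 286 to 336 CPM at PND0, with neither later step passing. The low E12.5 WT replicate 1 also had the lowest summed level of neuron markers of its group, 2459 CPM against 3185 to 4427, and the highest of meningeal markers, 2114 CPM against 968 to 1417; their part in the Lrp8 value was not tested. Without that library the rise of Lrp8 was 0.73 on the log2 scale (adjusted p = 9.08e-06).

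Vldlr did not move with Lrp8 over the first step, with 39.4 to 55.2 CPM at E12.5 and 47.3 to 51.4 CPM at E14.5. It rose over the next step, to 83.0, 93.6, 91.1 and 78.0 CPM at E16.5. All 4 libraries were above all E14.5 libraries, and the log2 fold change was 0.82 ± 0.062 (adjusted p = 2.26e-08). From E16.5 to PND0 it measured -0.19 ± 0.079 (adjusted p = 0.0530), which did not pass.

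Scarb1, the high-density lipoprotein receptor, passed in neither embryonic step and lay between 23.3 and 32.5 CPM in the 12 WT libraries. At birth it measured 55.9, 49.9, 52.9 and 45.1 CPM, all above every embryonic library. The log2 fold change from E16.5 to PND0 was 0.87 ± 0.091, or 1.83-fold (adjusted p = 2.78e-06). Over that step, 3 of the 8 genes changed, Scarb1, Npc1 and Npc2, where 53.2% of 17438 genes tested did.

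The 2 Niemann-Pick genes, whose proteins act one after the other, took different courses. Npc2 fell from 142 to 152 CPM at E12.5 to 96.9 to 112 CPM at E14.5, by 0.54 ± 0.054 on the log2 scale (adjusted p = 2.65e-05). It measured 100 to 122 CPM at E16.5 and fell again to 60.6, 70.8, 65.7 and 60.7 CPM at PND0, by 0.83 ± 0.080 (adjusted p = 1.27e-06). From E12.5 to PND0 the level of Npc2 was 2.27-fold lower, with a log2 fold change of -1.18 ± 0.070 (adjusted p = 1.62e-07).

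Npc1 went up, down and up again. Its WT libraries measured 39.9 to 44.8 CPM at E12.5, 53.9 to 60.9 CPM at E14.5, 36.5 to 41.1 CPM at E16.5 and 56.0 to 58.3 CPM at PND0. The 3 log2 fold changes were 0.44 ± 0.067 (adjusted p = 0.000365), -0.53 ± 0.065 (adjusted p = 3.92e-06) and 0.53 ± 0.073 (adjusted p = 2.77e-05). In each step the libraries of the 2 stages did not overlap. The ribosomal RNA share of the WT libraries was 0.2671% to 0.3757% at E12.5 and 1.037% to 1.174% at E14.5. It was 0.3559% to 0.6263% at E16.5, apart from replicate 1, and 1.799% to 2.785% at PND0. Its part in these steps was not tested. Without E16.5 WT replicate 1 the log2 fold changes of the steps at that stage were -0.51 and 0.51 for Npc1, 0.82 for Vldlr, -0.82 for Npc2 and 0.93 for Scarb1, all still called. Scarb1 then also passed from E14.5 to E16.5 (-0.23, adjusted p = 0.0143).

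Stard4 was highest at the first stage. The WT libraries measured 45.6, 54.0, 48.5 and 54.4 CPM at E12.5, then 29.1 to 36.2 CPM at E14.5. This fall of 0.66 ± 0.083 on the log2 scale (adjusted p = 0.000107) was the only step of Stard4 between neighbouring stages that passed; the genes that changed from E12.5 to E14.5 were Stard4, Npc2, Npc1 and Lrp8, 4 of 8 against 57.8% of 17942 genes tested. From E14.5 to E16.5 the genes that changed were Vldlr and Npc1, 2 of 8 against 57.5% of 17674. With offsets that remove a trend with transcript length, 5 of 8 passed in that step, beside 10081 of 17674 genes tested. From E16.5 to PND0 the offsets gave 5 of 8, beside 9045 of 17438. The added genes were Stard4 (0.23 and -0.29 on the log2 scale) in both steps, Npc2 (0.20) and Soat1 (-0.19) in the first and Vldlr (-0.26) in the second.

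Lipa and Soat1 passed in no step with the main settings. Lipa, the lysosomal acid lipase, ran between 16.8 and 29.5 CPM over the 16 WT libraries, and its log2 fold change from E12.5 to PND0 had a 95% interval from -0.27 to 0.35. Soat1, the cholesterol-esterifying enzyme, ran between 23.5 and 37.6 CPM, with an interval from -0.52 to 0.01. Soat1 passed from E12.5 to PND0 with no filter on low counts (-0.32), with length offsets (-0.40) and in the fit of all 16 WT libraries (-0.25).

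Other genes of the pathway, taken as lists, changed with stage in both directions. Over all genes tested, 34.5% rose and 36.4% fell from E12.5 to PND0. In this comparison 4 of 12 other receptors and uptake factors rose and 5 fell, with a median log2 fold change of -0.20 against -0.05 over all genes tested. Of the apolipoproteins and plasma lipid enzymes 6 of 8 tested rose and 1 fell (median 1.09), among them Apoe, the main apolipoprotein of the brain, at 1.87 ± 0.091. Of 21 lysosomal and sterol-transfer genes tested, 12 rose and 5 fell (median 0.37). Of 10 genes of the Reelin pathway, 6 rose and 3 fell (median 0.52), with the integrin subunit Itga3 at 1.39 ± 0.14, the kinase Fyn at 0.87 ± 0.10, the adaptor Crkl at -0.42 ± 0.071 and the secreted matrix protein Thbs1 at -1.73 ± 0.28.

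Upstream sequence is shown for 4 genes with different WT courses: Npc2, which fell, Vldlr, which rose, and Lipa and Soat1, which passed in no step with the main settings. RefSeq promoter windows (GRCm38.p6, 300 bases from 250 before to 50 after a start) were at hand for 5 of the 8 genes, in 8 windows. Stard4, Npc1 and Scarb1 had no window. Each stretch below is the longest part of a window before the start that holds no annotated exon, 5′ to 3′ on the gene's strand. Capitals mark the letters CCAAT or GGGCGG on either strand, the core letters of the CCAAT box and of the GC box.
Npc2 (chr12:84773153-84773250, minus strand): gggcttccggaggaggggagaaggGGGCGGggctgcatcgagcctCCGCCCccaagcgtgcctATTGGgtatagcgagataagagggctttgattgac
Vldlr (chr19:27216234-27216483, plus strand): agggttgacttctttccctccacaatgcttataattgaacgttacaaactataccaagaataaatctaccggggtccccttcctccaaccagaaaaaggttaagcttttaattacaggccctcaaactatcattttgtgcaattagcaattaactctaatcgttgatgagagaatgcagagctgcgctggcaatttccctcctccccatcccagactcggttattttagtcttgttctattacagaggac
Lipa (chr19:34527475-34527724, minus strand): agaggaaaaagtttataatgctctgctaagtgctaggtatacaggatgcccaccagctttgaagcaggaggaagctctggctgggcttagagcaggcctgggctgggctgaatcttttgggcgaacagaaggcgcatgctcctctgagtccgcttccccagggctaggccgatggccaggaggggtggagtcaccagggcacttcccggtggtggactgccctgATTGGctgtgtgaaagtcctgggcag
Soat1 (chr1:156474332-156474578, minus strand): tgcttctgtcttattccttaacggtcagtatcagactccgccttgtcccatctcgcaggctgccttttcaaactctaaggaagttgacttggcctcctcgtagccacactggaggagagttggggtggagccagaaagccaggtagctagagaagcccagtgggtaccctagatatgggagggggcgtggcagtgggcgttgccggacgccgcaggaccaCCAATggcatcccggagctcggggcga

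The Npc2 stretch holds 2 GC-box matches and 1 CCAAT match, the Lipa and Soat1 stretches hold 1 CCAAT match each, and the Vldlr stretch, whose gene has a second window, holds neither. Over whole windows, CCAAT occurred in 4 of the 8 member windows and in 37.4% of all 32851 windows. GGGCGG occurred in 4 of 8 and in 35.7%. For both motifs these were windows of Lipa, Npc2, Soat1 and Vldlr, the same 4 genes whose stretches are shown. No window of Lrp8, the remaining gene with windows, held either motif, and no Lrp8 stretch is shown. The letters TCACNCCAC, a form of the sterol regulatory element that the transcription factor SREBP binds, occurred in none of the 8 windows and in 1.24% of all windows on either strand. Stard4, Npc1 and Scarb1, which had no window, were not searched for any of these letters. A match is a string of letters and not a measured site.

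KO against WT at each stage asked whether the loss of Dhcr7 goes with a change in these genes. None of the 8 passed at any stage in edgeR at an adjusted p under 0.05. The background was small at each stage too: 0.0177% of 16948 genes at E12.5, 0.527% of 17837 at E14.5, 0.0462% of 17328 at E16.5 and 1.44% of 17420 at PND0. At an unadjusted p under 0.05, 1 of 8 passed at E12.5, where 4.70% of all genes did. The counts were 2 of 8 at E14.5 beside 8.73%, 2 of 8 at E16.5 beside 11.5%, and 3 of 8 at PND0 beside 18.0%. DESeq2 called 2 of the 8 at PND0, where it called 921 of 12809 genes with an adjusted p. It called none before birth, beside 30 of 22998 genes at E12.5, 122 of 10312 at E14.5 and 168 of 3407 at E16.5. At E16.5 it gave 3 of the 8 an adjusted p (Npc2, Vldlr and Lrp8) and left the others without one. The 32 log2 fold changes ranged from -0.26 to 0.39.

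**Figure D2:**
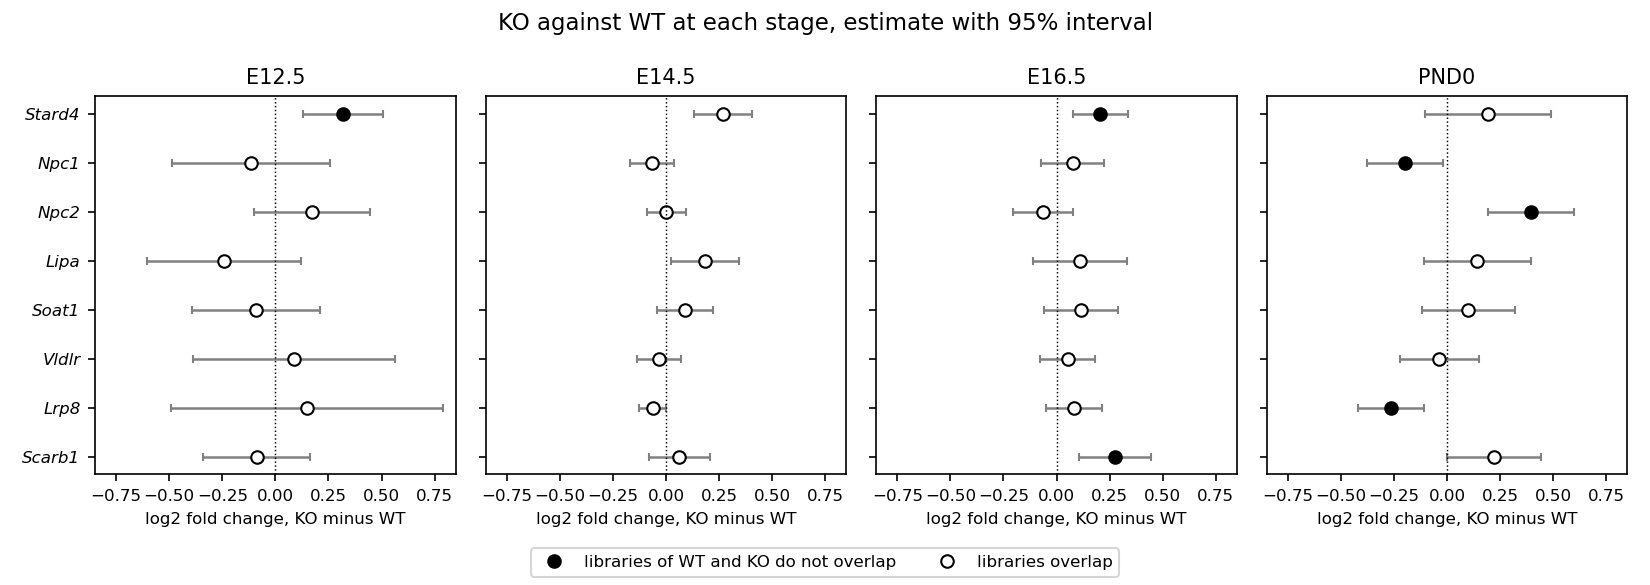
Log2 fold change of KO minus WT for the 8 genes at the 4 stages, with 95% intervals; filled points mark genes whose 4 KO libraries all lie outside the range of the 4 WT libraries. Stard4 is to the right of 0 in all 4 panels (0.32, 0.27, 0.21 and 0.19), and Npc2 (0.39) and Lrp8 (-0.26) at PND0 lie farthest from 0 at that stage.

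Stard4 was the only one of the 8 genes with a positive difference at every stage. At E12.5 the KO libraries measured 61.9, 63.9, 68.2 and 61.5 CPM against 45.6, 54.0, 48.5 and 54.4 CPM in WT, so all KO libraries were above all WT libraries. The log2 fold change was 0.32 ± 0.084, or 1.245-fold (adjusted p = 0.875), and without KO replicate 1 it was 0.32 (adjusted p = 0.561). Stard4 was the only one of the 8 with groups apart at this stage, where 2.53% of all genes were.

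At E14.5 Stard4 measured 38.6, 40.05, 43.5 and 34.9 CPM in KO against 29.1, 31.8, 33.6 and 36.2 CPM in WT. KO replicate 4 lay below WT replicate 4, and none of the 8 genes had groups apart (4.77% of all genes did). The log2 fold change was 0.27 ± 0.068 (adjusted p = 0.0604). The call sits beside the threshold: the adjusted p was 0.00439 with no filter on low counts, 0.0331 with the replicate number as a block, 0.0315 without WT replicate 4 and 0.0187 without KO replicate 4. It was 0.125 with a ribosomal RNA covariate, 0.321 without WT replicate 1 and 1 in the fit of all 32 libraries.

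At E16.5 Stard4 measured 41.0, 40.6, 40.8 and 40.3 CPM in KO against 32.8, 37.1, 36.0 and 33.5 CPM in WT, again apart, with a log2 fold change of 0.21 ± 0.061 (adjusted p = 0.293). Without WT replicate 1, the library with much ribosomal RNA, it was 0.19 (adjusted p = 0.191). The summed radial glia markers were apart at this stage too, at 1103 to 1221 CPM in KO and 1237 to 1397 CPM in WT, and their part in the values of Stard4 and Scarb1 was not tested. At PND0 it measured 41.1, 37.6, 27.9 and 42.9 CPM in KO against 36.1, 32.6, 36.1 and 25.7 CPM in WT. The lowest library of each genotype stood well below the other 3, and the log2 fold change of 0.19 ± 0.14 (adjusted p = 0.511) did not exceed that spread. It was 0.10 without WT replicate 4 and 0.31 without KO replicate 3.

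Averaged over the 4 stages in a fit of all 32 libraries, Stard4 was higher in KO by 0.25 ± 0.052 on the log2 scale, or 1.19-fold (adjusted p = 0.0115). This average was added after the values by stage were seen. It called 0.558% of 19541 genes, and of the 8 members Stard4 alone. The call was lost with the replicate number as a block (adjusted p = 0.0583) and without E12.5 (0.0625), E14.5 (0.111) or E16.5 (0.0674), with log2 fold changes of 0.25, 0.22, 0.25 and 0.27. It remained without PND0 (0.00148) and without each of the 32 libraries in turn (0.000447 to 0.0254). DESeq2 also called Stard4 (adjusted p = 0.000397), in a different model with a KO effect common to all stages in place of the average.

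Within stages, the 2 genes most like Stard4 over the 32 libraries were Idi1 (Pearson r = 0.92 of log2 CPM after the stage mean was removed) and Cyp51 (0.85), which both encode enzymes of cholesterol synthesis. These libraries share genotype and preparation, so the values are a description. With the mean of each genotype and stage removed, r was 0.86 with Idi1 and 0.72 with Cyp51. PND0 WT replicate 4 was low in all 3 genes. It measured 25.7 CPM for Stard4, 30.4 for Idi1 and 132 for Cyp51, against 32.6 to 36.1, 48.7 to 58.3 and 194 to 218 CPM in the other 3 WT libraries.

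**Figure D3:**
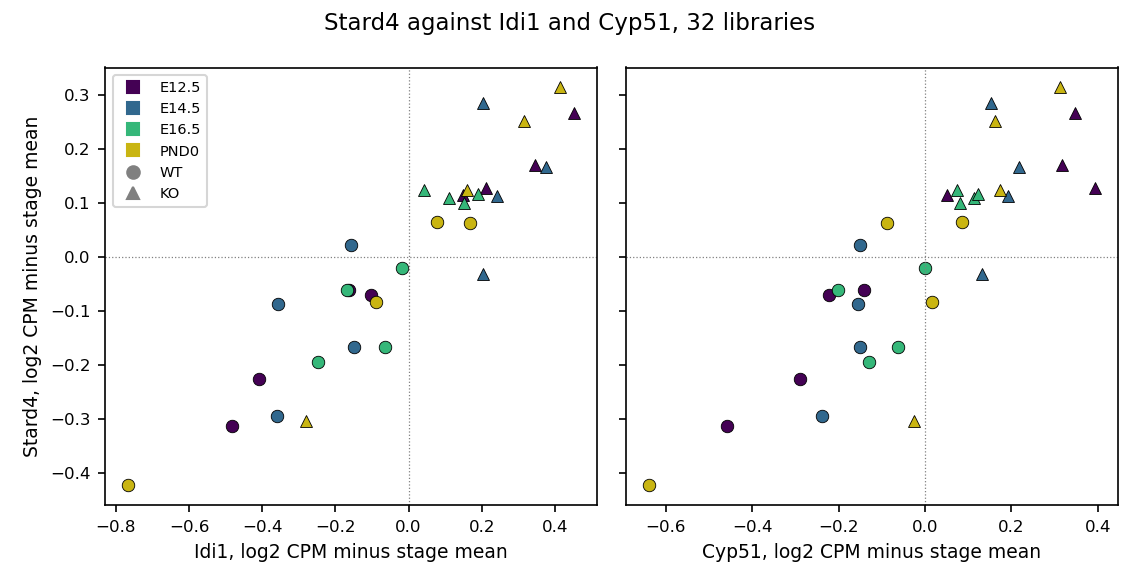
Stard4 against Idi1 and Cyp51 in each of the 32 libraries, in log2 CPM minus the mean of the stage; circles are WT, triangles KO, and colours are stages. The points rise from lower left to upper right, with r of 0.92 and 0.85, and WT replicate 4 of PND0 is the lowest point for Stard4.

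At PND0 the largest difference of the 8 genes was that of Npc2. It measured 78.9, 80.9, 99.9 and 80.5 CPM in KO against 60.6, 70.8, 65.7 and 60.7 CPM in WT, with all KO libraries above all WT libraries. The log2 fold change was 0.39 ± 0.095, or 1.31-fold (adjusted p = 0.0513). It passed in DESeq2 (adjusted p = 0.00864), with no filter (0.00274), with the replicate block (0.0410), in the fit of all 32 libraries (0.0128) and without KO replicate 4 (0.0499). It did not pass with length offsets (0.104) or a ribosomal RNA covariate (0.775). With that covariate 2 of 17420 genes tested passed at PND0, against 250 without it.

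The highest library, KO replicate 3, also had the highest summed levels of choroid plexus markers (996 CPM, against 608 to 743 in the other KO and 328 to 615 in the WT libraries), of erythroid markers (2065 CPM, against 179 to 574 in the other 7) and of radial glia markers (1249 CPM, against 876 to 955). Without it the log2 fold change of Npc2 was 0.31 (adjusted p = 0.0848), and the part of these cells in the result was not tested. At the earlier stages Npc2 measured 0.17 ± 0.12, 0.00 ± 0.046 and -0.06 ± 0.066. The first of these was 0.03 without E12.5 KO replicate 1, which had 214 CPM against 143 to 163 in the other KO libraries.

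Lrp8 was lower in KO at PND0, at 240, 260, 263 and 276 CPM against 286, 308, 336 and 310 CPM in WT, again with no overlap. The log2 fold change was -0.26 ± 0.073 (adjusted p = 0.0803), and DESeq2 called it (adjusted p = 0.0337), while the fit of all 32 libraries did not (adjusted p = 0.374). Npc1 measured 55.1, 49.1, 46.5 and 50.9 CPM in KO against 56.0, 58.3, 57.9 and 57.9 CPM in WT, with a log2 fold change of -0.20 ± 0.084 (adjusted p = 0.226). These 3 genes, 1 higher and 2 lower, were the members with groups apart at PND0, where 11.9% of all genes were. The summed oligodendrocyte markers were apart too, at 266 to 293 CPM in KO and 297 to 333 CPM in WT, and their part was not tested. With length offsets the difference of Lrp8 shrank to -0.13 (adjusted p = 0.466) and that of Npc1 to -0.09 (adjusted p = 0.689), while that of Npc2 was 0.37. Over the edgeR and DESeq2 settings with no library left out, adjusted p ran from 0.0337 to 0.759 for Lrp8 and from 0.185 to 0.831 for Npc1.

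Scarb1 had groups apart at E16.5, with 31.4, 32.8, 36.7 and 32.6 CPM in KO against 29.9, 27.1, 26.0 and 26.2 CPM in WT, where the other gene apart was Stard4 and 6.39% of all genes were. Its log2 fold change there was 0.28 ± 0.079 (adjusted p = 0.281), and 0.33 without WT replicate 1 (adjusted p = 0.114). At PND0 it measured 0.22 ± 0.10 (adjusted p = 0.280), and at E12.5 and E14.5 -0.09 ± 0.11 and 0.06 ± 0.070.

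Lipa measured 26.7, 22.4, 25.1 and 20.95 CPM in KO at E14.5 against 19.95, 23.0, 20.4 and 20.4 CPM in WT, which overlap (0.18 ± 0.080, adjusted p = 0.488). Its other differences were -0.24 ± 0.16, 0.11 ± 0.10 and 0.14 ± 0.12 at E12.5, E16.5 and PND0. Soat1 stayed between -0.09 and 0.12 at the 4 stages and overlapped at each. The genes most like Lipa within stages were Cdh5, an endothelial cadherin, and Ptbp3 (r = 0.80 and 0.75 over 32 libraries). With the mean of each genotype and stage removed, r was 0.75 with Cdh5 and 0.77 with Ptbp3. Endothelial marker sums ran from 218 to 404 CPM over all libraries, and their part in the Lipa values was not tested.

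**Figure D4:**
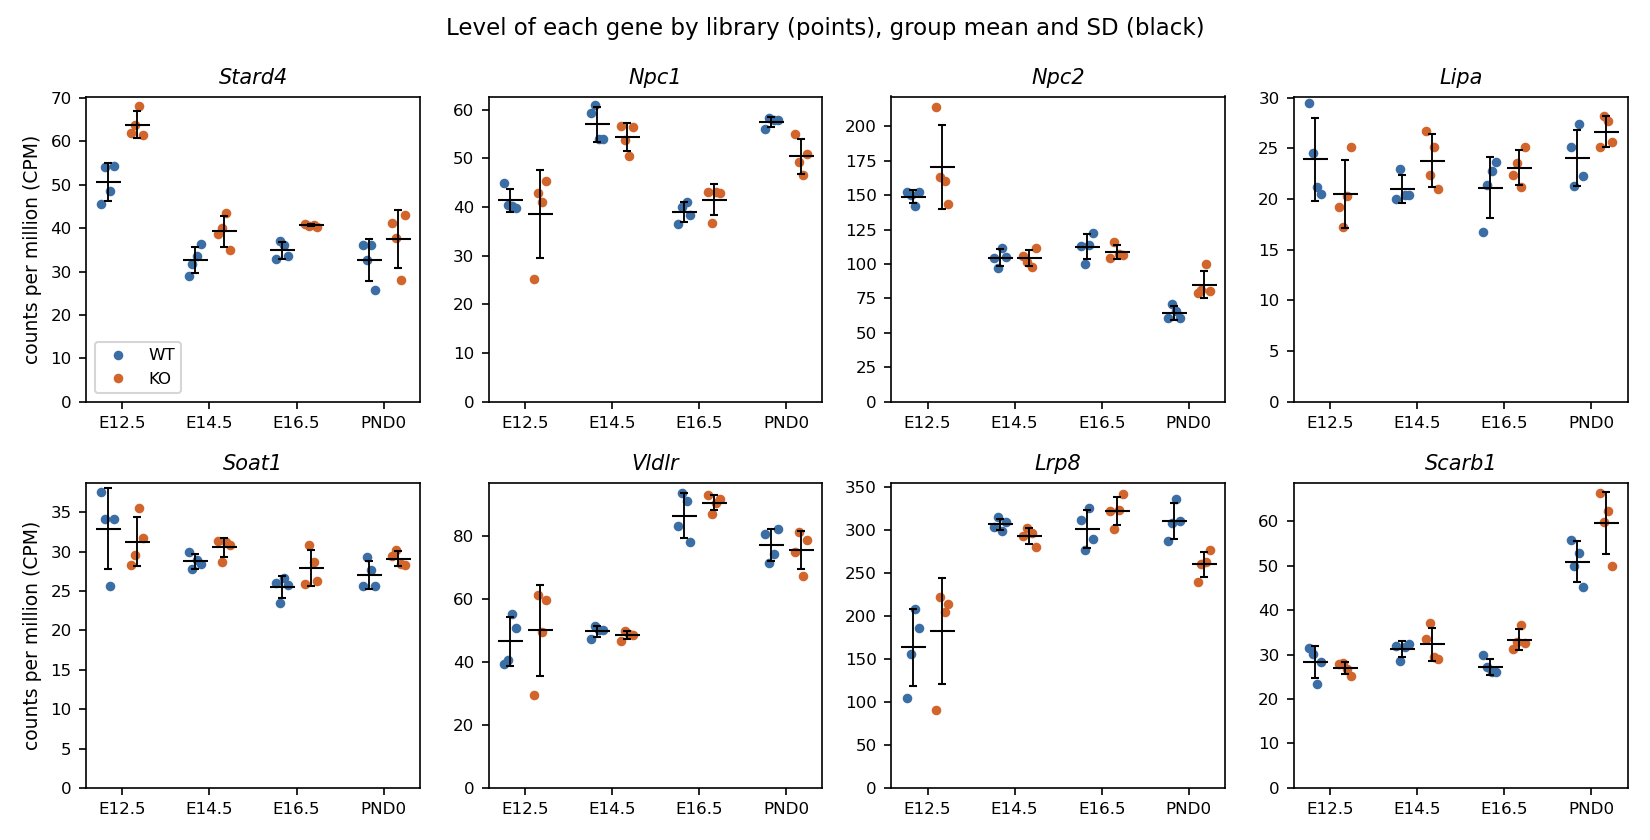
Level of each gene in CPM in every library (points; blue WT, orange KO) at the 4 stages, with the group mean and SD of 4 libraries in black. Stard4 is higher in KO at E12.5 and E16.5 with no overlap, Npc2 is higher and Lrp8 lower in KO at PND0, and 1 KO library at E12.5 is low for Lrp8 (91.1 CPM), Vldlr (29.6 CPM) and Npc1 (25.2 CPM).

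Vldlr stayed near 0 after E12.5. Its differences of -0.03, 0.05 and -0.04 at E14.5, E16.5 and PND0 had 95% intervals of -0.14 to 0.07, -0.08 to 0.18 and -0.22 to 0.15 on the log2 scale. At E12.5 the pair of Reelin receptors had the largest errors of the 8 genes, 0.29 for Lrp8 and 0.21 for Vldlr. In KO, Lrp8 measured 91.1, 222, 204 and 214 CPM and Vldlr 29.6, 61.2, 49.4 and 59.6 CPM, and both were lowest in replicate 1, the library with 5.639% ribosomal RNA. That library also had the lowest summed neuron markers of its group, 3517 CPM against 4110 to 4502. It had the highest sums of radial glia markers (2998 CPM against 2144 to 2708) and erythroid markers (4427 CPM against 1438 to 1712). The part of these cells was not tested. Without replicate 1 the differences of Lrp8 and Vldlr rose from 0.15 to 0.36 and from 0.09 to 0.26, with adjusted p of 0.563 and 0.561, and that of Npc1 turned from -0.12 to 0.02. Within stages the genes most like Lrp8 were Nfasc and Xpr1 (r = 0.95 for both), and those most like Vldlr were Sestd1 and Ptprt (0.92 for both).

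Of the 10 genes of the Reelin pathway none passed in a genotype comparison at any stage, and the smallest p values belonged to Thbs1, Fyn, Itga3 and Crkl at the successive stages (adjusted p between 0.133 and 0.875). Of the apolipoproteins and plasma lipid enzymes none of 6 to 9 tested passed, with Clu (-0.58), Apoe (-0.15), Apod (-0.20) and Pltp (0.33) having the smallest p at the 4 stages in turn. Of 21 lysosomal and sterol-transfer genes none passed, with Gramd1c (-0.55), Gramd1b (0.15), Scp2 (-0.18) and Gramd1a (0.33) in that place. Medians of these 3 lists lay between -0.11 and 0.15, beside medians over all genes tested of 0.00 at each stage. Of the marker lists for other cell types, 1 gene of the oligodendrocyte lineage was lower in KO at E14.5 and 1 hindbrain and spinal cord gene at PND0, and no other marker passed in a genotype comparison. The summed level of the oligodendrocyte markers was apart at E14.5 (108 to 114 CPM in KO, 118 to 123 in WT), as was that of the hindbrain and spinal cord markers at PND0 (0.238 to 0.515 CPM in KO, 1.24 to 6.57 in WT). Of these 5 hindbrain markers 1 was tested and 1 had any count in KO at PND0, so this sum and the single call are not separate results. All marker lists were summed at all 4 stages, and only the radial glia sum at E16.5 and the oligodendrocyte sum at PND0 were also apart. Of single genes tested, 2.53% to 11.9% were apart by stage.

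A test of whether the KO effect differed between stages called none of the 8 genes in edgeR and none in DESeq2, with 0.0256% of 19541 genes called in edgeR. Of the 8, Npc2 alone was under an unadjusted p of 0.05 (adjusted p = 0.223), as were 2635 of the 19541 genes tested. Npc2 passed without E12.5 KO replicate 1 (adjusted p = 0.0246), where 797 of 20007 genes passed. The larger Npc2 value at PND0 was therefore not shown to differ from the other stages in the fit of all libraries.

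In WT brain the members did not follow one course. Over the 16 WT libraries, which share 4 stages, r of log2 CPM was 0.70 between Stard4 and Npc2, -0.74 between Stard4 and Lrp8, -0.83 between Soat1 and Vldlr, and -0.85 between Npc2 and Scarb1. The genes most like each member over these libraries were Tpi1 and Atp5b for Stard4 (r = 0.94 and 0.93), Lrrc58 and Rpl17-ps3 for Npc1 (0.97 for both), Rack1 and Fkbp4 for Npc2 (0.99 for both), and Plxdc2 and St6galnac3 for Lipa (0.83 and 0.82). For Soat1 they were Arhgef10 and Kank2 (0.93 and 0.92), for Vldlr Arfgef3 and Nsg1 (0.98 and 0.97), for Lrp8 Carmil3 and A330084C13Rik (0.98 and 0.97), and for Scarb1 Rap1gds1 and Eda (0.97 and 0.96). Within stages Npc1 was most like Nisch and Prrc2c (0.92 and 0.91), Npc2 most like Rbm17 and Eif5a (0.91 and 0.90), Soat1 most like Arhgef10 and Vgll4 (0.76 and 0.72) and Scarb1 most like Mrm1 and Fam102a (0.73 and 0.71).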

How the data were processed

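Polyadenylated RNA from whole brain was sequenced as paired reads in 32 libraries, per the labels' protocols. The authors deposited 4 tables of raw gene counts, 1 per stage, as whole numbers that are not normalized, for the same 55291 symbols. The submitters' processing notes name HISAT2, SAMtools, featureCounts, DESeq2 and the build mm10; strand setting and annotation are not given in the sources used here. The 8 members and all gene and marker lists were chosen with earlier results of these data known.

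Counts were tested with edgeR 4.0.16 in R 4.3.3 (TMM scaling, filterByExpr with a minimum count of 10 and a minimum total of 15, robust quasi-likelihood fit) on the 8 libraries of each comparison, with Benjamini-Hochberg adjustment over all genes tested and a threshold of 0.05. Levels are CPM with TMM over all 32 libraries, a scaling apart from that of each fit. Standard errors are the log2 fold change divided by the square root of F, and 95% intervals use the t distribution. A count of 0 would allow up to 3 counts, 0.106 to 0.228 CPM by library, for counting error only. DESeq2 1.42.0 and the other settings tried are in the closing section. The test was also run on simulated counts, drawn independently for each library from the spread that edgeR had fitted. Such counts follow the model of the test, so that run cannot show how far calls hold in these libraries. No 2 libraries of a group were copies: chi-square per degree of freedom was 2.90 or more in all 48 pairs. Named genes are the 8 members in every comparison, Dhcr7, the 2 genes most like each member by Pearson r (mean of at least 5 CPM), and per list the genes that passed in a genotype comparison, or else the one with the smallest p. One gene named by this rule, with the genotype counts of its list, is not reported here. Symbols were matched to GENCODE M21 for 53180 of 55291.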

Additional observations from a re-analysis of the deposited data

Results flagged for a closer look

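In 11 of 80 groups of 4 libraries (the 8 members, Dhcr7 and the ribosomal RNA gene CT010467.1 in 8 groups each), 1 library stood apart from the other 3 by Dixon's 95% criterion. Chance flags about 1 in 20 groups. Npc1 was high in E12.5 WT replicate 1 (44.84 CPM against 39.86 to 40.46), low in E16.5 KO replicate 2 (36.72 against 42.93 to 43.16) and low in PND0 WT replicate 1 (56.0 against 57.88 to 58.25). Npc2 was high in PND0 KO replicate 3, at 99.9 CPM against 78.92 to 80.86. Lipa was high in E14.5 WT replicate 2, at 22.99 CPM against 19.95 to 20.42. In the same library Scarb1 was low, at 28.49 CPM against 31.82 to 32.46. Lrp8 was low in E12.5 KO replicate 1, at 91.05 CPM against 204.3 to 221.8. That library was also high in CT010467.1, with 59430 CPM against 1915 to 3306, as was E16.5 WT replicate 1, with 37590 CPM against 3394 to 6072. Dhcr7 was low in PND0 WT replicate 4 (60.02 CPM against 96.89 to 102.4) and in PND0 KO replicate 2 (11.45 CPM against 15.13 to 15.73).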

How the results depend on the processing

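No wild-type call of a member was lost under any setting run, and the genotype values that reversed were all uncalled; causes were not tested. With the replicate number as a block, 1 member passed at E14.5 (Stard4), beside 131 of 17837 genes tested. At PND0 1 passed (Npc2), beside 356 of 17420, and 0 passed in the average over stages. The replicate numbers are not shown to pair the libraries, since same-numbered libraries correlated between -0.27 and 0.38 and matched best in 4 of 16 cases. Without a filter on low counts 1 member passed at E14.5, beside 146 of 33585 genes, and 1 at PND0, beside 1091 of 33525. With DESeq2 2 passed at PND0 (Npc2 and Lrp8), beside 921 of 12809. With all 32 libraries in 1 fit 1 passed at PND0, beside 1205 of 19541. Length offsets gave 5 members from E14.5 to E16.5, beside 10081 of 17674 genes, and 5 from E16.5 to PND0, beside 9045 of 17438. Without E12.5, E14.5 or E16.5 the average called 0. Leaving out each library in turn, members passing ranged from 0 to 0 at E12.5 and E16.5, 0 to 1 at E14.5, at PND0 and for the difference between stages, 1 to 1 for the average, and in WT 4 to 5, 2 to 3, 3 to 4 and, from E12.5 to PND0, 6 to 7. For the same WT comparisons, all genes passing then ranged from 9397 to 11020, 9421 to 10189, 8255 to 9398 and 11872 to 12660. Reversed log2 values were, for Vldlr, -0.0062 at E12.5 with a covariate from sex-linked genes, 0.12 (length offsets) and 0.15 (ribosomal RNA covariate) at PND0 and -0.0043 in the average without E12.5. For Npc2 at E14.5 they were -0.0055 (no filter), -0.00029 (DESeq2), -0.0025 (length), -0.011 (ribosomal RNA) and -0.00091 (all libraries). In WT they were 0.049 (length) for Lrp8 from E14.5 to E16.5, -0.0025 (no filter) and -0.11 (length) for Lrp8 and -0.0016 (length) for Soat1 from E16.5 to PND0, and -0.026 (no filter) and -0.079 (length) for Lipa from E12.5 to PND0. For Lrp8 in the average they were 0.019 (length) and 0.059 (without PND0). Values that changed sign on leaving out a library ranged, for KO minus WT, from -0.21 to 0.024 (Npc1), -0.016 to 0.26 (Vldlr) and -0.013 to 0.36 (Lrp8) at E12.5, -0.036 to 0.035 (Npc2) and -0.0100 to 0.11 (Scarb1) at E14.5 and -0.083 to 0.011 (Vldlr) at PND0. In the average they ranged from -0.0023 to 0.069 (Vldlr) and -0.059 to 0.037 (Lrp8), and in WT from -0.027 to 0.11 (Lipa) and -0.048 to 0.037 (Lrp8) from E14.5 to E16.5, -0.027 to 0.056 (Lrp8) from E16.5 to PND0 and -0.026 to 0.15 (Lipa) from E12.5 to PND0. Genes called over all tested moved more: from 3 to 30 (DESeq2), 6 (block) and 52 (all libraries) at E12.5, from 94 to 146 (no filter) and 4 (all libraries) at E14.5, from 8 to 233 (no filter), 168 (DESeq2), 5 (block), 4 (sex covariate) and 3 (all libraries) at E16.5, from 250 to 1091 (no filter), 921 (DESeq2), 48 (length), 2 (ribosomal RNA) and 1205 (all libraries) at PND0, and from 5 to 11 (no filter), 0 (block) and 344 (DESeq2) for the difference between stages. Leaving out 1 library moved these counts too: to between 1 (without KO replicate 2) and 5 (without WT replicate 3) at E12.5, 52 (WT replicate 4) and 155 (WT replicate 2) at E14.5, 3 (KO replicate 3) and 14 (WT replicate 2) at E16.5, 35 (WT replicate 3) and 263 (WT replicate 2) at PND0, 0 and 797 (E12.5 KO replicate 1) for the difference between stages, and from 109 to between 63 (E16.5 KO replicate 2) and 256 (E12.5 KO replicate 1) for the average, which also moved to 72 (no filter) and, without E12.5, E14.5 or PND0, to 232, 40 and 34.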
